A study of Mus musculus with 6 samples.

Results

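The genes of the constitutive proteasome and its regulators were followed in RNA-seq libraries labelled as regulatory T cells (Tregs) sorted from mouse bone marrow, in which granulocyte transcripts were the most abundant of the cell markers examined. Members were the gene symbols that begin with Psm, a letter from a to g and a digit, leaving out the immunoproteasome subunits Psmb8, Psmb9 and Psmb10. This gave 47 of the 15483 genes in the tables, with 15 core genes (Psma and Psmb), 21 genes of the 19S group (Psmc and Psmd), 6 of the activator group (Psme), and 5 Psmf and Psmg genes. Of the 47, 2 match by symbol but are no subunit, activator, core-binding regulator or assembly chaperone of the proteasome. They are Psmc3ip, which encodes a recombination factor, and Psme3ip1, which encodes a partner of the activator Psme3. The assembly chaperones Psmd5, Psmd9, Psmd10 and Psmg1 to Psmg4 and the regulator Psmf1 are no subunits either and were kept. The mice were wild type, and 3 libraries came from control animals and 3 from animals 3 months after irradiation. The series text gives the sort gate as Foxp3-expressing cells with CD3 and CD4 and without NK1.1. The dose and kind of irradiation, the age and sex of the mice and any pooling of animals are not stated in the labels used here. The question is how these transcripts differ in mice that the series title links with premature ageing.

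The proteasome is the main protease of the cytosol and nucleus and degrades proteins tagged with ubiquitin. Its core particle is a barrel of alpha rings, which gate the entrance, and beta rings, of which Psmb5, Psmb6 and Psmb7 carry the constitutive active sites. The 19S particle binds ubiquitin chains, removes them and unfolds the substrate with a ring of ATPases. The activators open the core without using ubiquitin, and interferon gamma induces Psme1 and Psme2 (the PA28 alpha and beta chains) together with the immunoproteasome subunits, which shape peptides for MHC class I molecules. T cells depend on the proteasome for the turnover of signalling proteins after antigen contact.

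After irradiation the genes of the PA28 alpha-beta activator fell, while 1 of 15 core genes and 0 of 21 genes of the 19S group were called. Of the 47 members tested with limma, 1 was higher (Psmb5) and 3 were lower (Psme1, Psme2 and its copy Psme2b), which is 8.51% of members beside 16.6% of all 10666 genes tested. Over all genes 6.29% were called higher and 10.3% lower. All 47 passed the filter of a mean of at least 1 FPKM (fragments per kilobase of each transcript after scaling by library), with Psma8 nearest to it at 1.03 FPKM. The median log2 change was 0.03 in the core, 0.01 in the 19S group and -0.20 in the activator group, beside -0.02 over all genes tested. Without Psme3ip1 the activator median was -0.30, and without Psme2b it was -0.10. Differences in log2(FPKM + 1) are given as irradiated minus control, and a gene is called at a Benjamini-Hochberg adjusted p under 0.05 over all genes tested. In 10 members the groups did not overlap, 4 higher and 6 lower after irradiation, which is 21.3% of members beside 33.6% of all genes (13.5% higher and 20.1% lower).

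**Figure D1:**
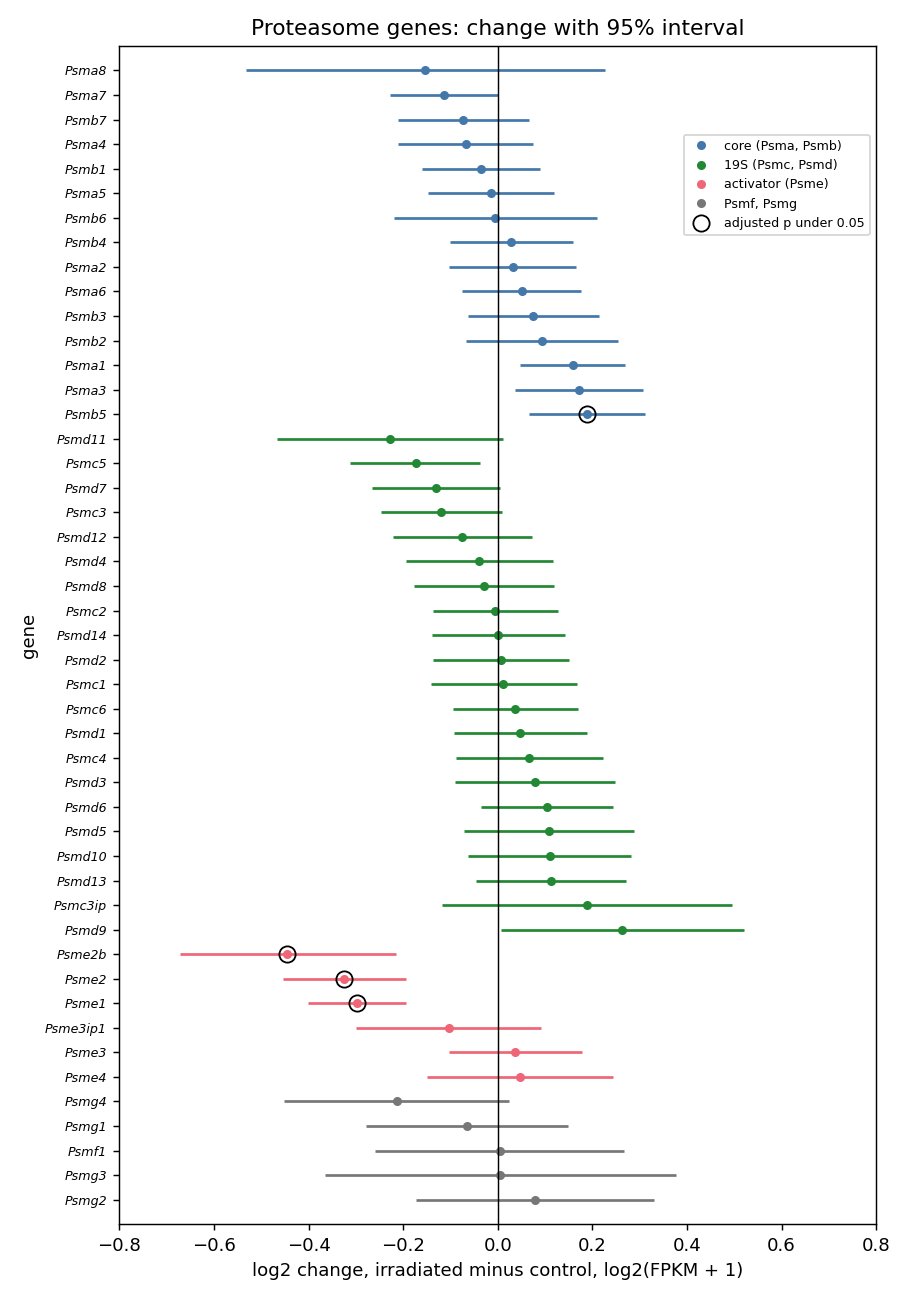
The x axis is the log2 change (irradiated minus control, on log2(FPKM + 1)) of each of the 47 members, with the 95% interval from limma as a line, coloured by class, and rings mark adjusted p under 0.05. The intervals of Psme1, Psme2, Psme2b and Psmc5 lie wholly below 0, those of Psmb5, Psma1, Psma3 and Psmd9 wholly above it, and those of the other members include it.

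These values were read in libraries in which markers of several cell types moved. T cell markers (11 of 12) fell, and their summed level was 441 to 456 FPKM in controls and 251 to 262 FPKM in irradiated libraries. Neutrophil markers (11 of 15) rose, from sums of 69200 to 74400 FPKM to sums of 101000 to 104000 FPKM, and S100a8, the calprotectin gene of granulocytes, stood at 25282 ± 1249 FPKM (SD, n = 3) in controls and 39026 ± 427 FPKM in irradiated libraries. Foxp3, the defining factor of Tregs, stood at 22.6 ± 1.93 and 12.6 ± 0.795 FPKM. Granulocyte transcripts thus stood far above those of T cells in all 6 libraries, against their label as sorted Tregs. Macrophage markers (10 of 10) and B cell markers (9 of 9 tested) fell too, with summed levels of 721 to 747 against 245 to 267 FPKM and of 140 to 148 against 43.7 to 53.5 FPKM. Markers of dendritic cells (5 of 6 tested), eosinophils (6 of 8) and erythroid cells (5 of 7) fell. On the list of NK and CD8 T cell markers 5 of 8 were called lower. The sums were 124 to 135 against 45.1 to 53.8 FPKM for dendritic cells and 5330 to 5890 against 3490 to 3540 FPKM for eosinophils. For erythroid cells they were 1060 to 1300 against 711 to 741 FPKM. For the NK and CD8 list they were 211 to 230 against 188 to 190 FPKM. Most of that last sum was Nkg7, which was not called (log2 change -0.03). Cd8a and Cd8b1 were not called either, with log2 changes of -0.34 and 0.12. Of the plasma cell markers 3 of 5 tested were called higher, and the list sum rose from 230 to 243 FPKM to 536 to 567 FPKM. Most of that rise was Jchain, at 129 ± 6.91 FPKM in controls and 410 ± 9.55 FPKM in irradiated libraries. Sdc1, with a higher mean, was not called. Prdm1 lay the other way without overlap, at 1.70 ± 0.110 and 1.11 ± 0.299 FPKM, and was not called. Every gene on these 9 lists was above 0 in all 6 libraries except the B cell precursor gene Igll1 and the dendritic cell gene Xcr1. Proteasome genes are transcribed in all of these cells, and the part of these markers' shifts in the results below was not tested. In such bulk samples fewer cells of a type and less RNA per cell cannot be told apart. Column totals were 451444 to 485365 FPKM, and the depth relative to control replicate 1, recovered from low values, was 98.4% to 103% in the other control and 81.6% to 92.6% in irradiated libraries. The absolute depth is unknown.

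The sequences of the activator genes bear on how far their values can be told apart. Psme1 (chromosome 14, 55578123 to 55581529, plus strand, GRCm38) and Psme2 (chromosome 14, 55587441 to 55591113, minus strand) are neighbours with 5911 bases between them. Psme2b (chromosome 11, 48945354 to 48946190) is annotated as a protein-coding gene and is a near-identical copy of Psme2. Over 717 aligned coding bases the copy differs from Psme2 at 5, an identity of 99.3%, and the longest identical run is 311 bases. The coding bases 454 to 543 of both are shown because they hold 3 of those 5 differences, in capitals, and are otherwise alike.
Psme2: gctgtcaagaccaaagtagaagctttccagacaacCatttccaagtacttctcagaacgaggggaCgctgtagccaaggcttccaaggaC
Psme2b: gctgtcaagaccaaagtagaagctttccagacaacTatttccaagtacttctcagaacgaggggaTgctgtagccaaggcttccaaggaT
Reads from the coding part that cover none of these 5 bases cannot be assigned to 1 copy, so the split between Psme2 and Psme2b is uncertain and they are not separate evidence of a change. By contrast the coding sequences of Psme1 and Psme2 share 61.3% of aligned bases, with no identical run over 14 bases.

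The interferon-inducible activator was lower in every irradiated library. Psme1 stood at 207, 195 and 194 FPKM in control replicates 1, 2 and 3 and at 162, 162 and 160 FPKM in irradiated replicates 1, 2 and 3. The groups were far apart, and the irradiated values lay within a few FPKM of each other. Psme1 changed by -0.30 ± 0.05 (SE, limma adjusted p = 0.00124), an 18.7% lower mean. Psme2, the beta chain that assembles with Psme1 into a ring of mixed chains, stood at 136, 132 and 123 FPKM in controls and at 101, 100 and 110 FPKM in irradiated libraries. Its highest irradiated value stayed below its lowest control value, and it changed by -0.33 ± 0.06 (limma adjusted p = 0.00304). Both calls were kept in all 14 alternative fits.

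Psme2b stood at 40.2, 42.1 and 43.5 FPKM in controls and at 36.1, 25.8 and 30.6 FPKM in irradiated libraries, and it changed by -0.45 ± 0.10 (limma adjusted p = 0.0131). The call of Psme2b was lost without the filter on low values (adjusted p = 0.0595) and without the variance trend (adjusted p = 0.0556). Summed over both copies the level was 172 ± 5.12 FPKM (SD, n = 3) in controls and 135 ± 7.65 FPKM in irradiated libraries, a log2 change of -0.36. On the same strand Psme2b also overlaps the annotated genes 9930111J21Rik1 and Gm12185, which did not pass. 9930111J21Rik1 stood at 6.05 ± 1.04 FPKM in controls and 4.59 ± 0.944 FPKM after irradiation, and Gm12185 at 1.66 ± 0.265 and 0.868 ± 0.337 FPKM, the latter without overlap and in the same direction as Psme2b. Psme1 overlaps Emc9 on the other strand, which stood at 3.81 ± 0.558 FPKM in controls and 2.82 ± 0.391 FPKM in irradiated libraries. Whether the authors' counting used the strand is not stated in the labels used here.

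**Figure D2:**
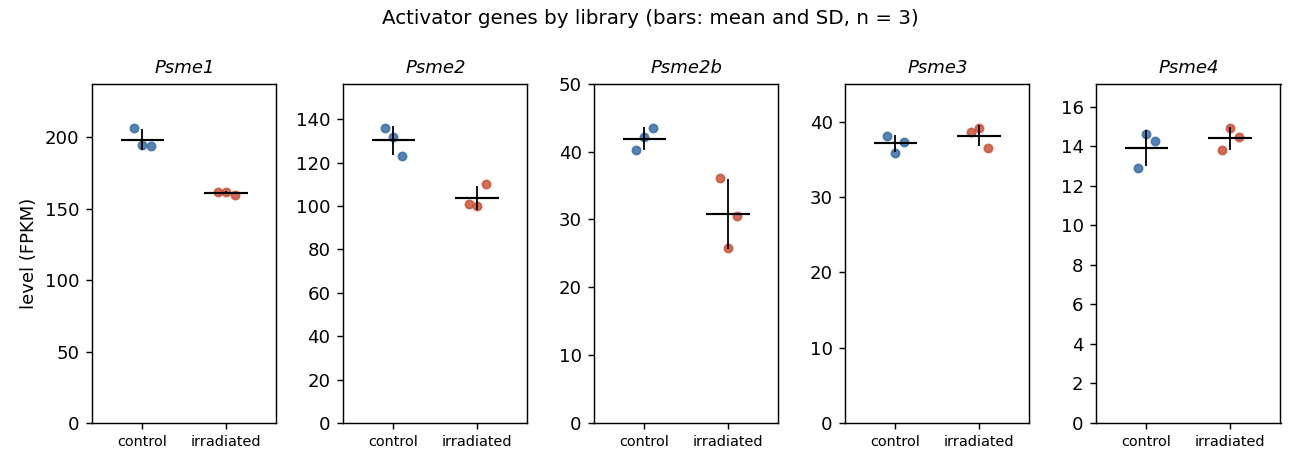
The y axis of each panel is the level in FPKM, each with its own scale from 0, of 1 activator gene in the 3 control (blue) and 3 irradiated (red) libraries, with the mean and SD as bars. Psme1, Psme2 and Psme2b show no overlap between the groups, while Psme3 and Psme4 overlap.

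The other activators did not pass. Psme3, which forms the nuclear PA28 gamma ring, stood at 38.2, 36.0 and 37.3 FPKM in controls and at 38.7, 39.2 and 36.6 FPKM in irradiated libraries. The groups overlapped, and the log2 change of 0.04 had a 95% interval from -0.10 to 0.18. Psme4, which encodes the single-chain activator PA200 that acts in spermatogenesis and DNA repair, stood at 13.9 ± 0.917 FPKM in controls and 14.4 ± 0.570 FPKM in irradiated libraries, with an interval from -0.15 to 0.24. Psme3ip1, whose product binds the PA28 gamma ring, changed by -0.10 ± 0.09 (adjusted p = 0.484). Within libraries the ratio of Psme1 to Psme3 was 5.41, 5.42 and 5.19 in controls and 4.19, 4.12 and 4.37 in irradiated libraries. This ratio was chosen after its values were seen, and a two-sided exact permutation p of 0.1 is the smallest that 3 libraries against 3 allow. The ratio did not overlap between the groups, and scaling a library does not alter it.

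The catalytic subunits of the core hold the 1 member that was called higher. Psmb5, the chymotrypsin-like active site (chromosome 14, 54614119 to 54618022, minus strand), stood at 91.8, 102 and 98.7 FPKM in controls and at 108, 111 and 114 FPKM in irradiated libraries. The groups did not overlap, and the log2 change was 0.19 ± 0.06 (limma adjusted p = 0.0417), close to the threshold. The call was lost whenever 1 of the 6 libraries was left out, with adjusted p from 0.0504 without control replicate 3 to 0.157 without control replicate 1. With all 6 libraries it was also lost without the filter on low values (adjusted p = 0.0653), without the variance trend (0.155) and with the replicate block (0.0581). Psmb6, the caspase-like site, stood at 90.03, 75.9 and 82.3 FPKM in controls and at 71.8, 95.8 and 81.0 FPKM in irradiated libraries. Psmb6 thus varied more within the groups than between them (interval -0.22 to 0.21). Psmb7, the trypsin-like site, stood at 115 ± 6.75 and 109 ± 6.29 FPKM and did not pass (interval -0.21 to 0.07).

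The immunoproteasome subunits take the places of these chains in newly made cores. Psmb8 replaces Psmb5 and stood at 239, 246 and 200 FPKM in controls and at 185, 176 and 183 FPKM in irradiated libraries, a log2 change of -0.33 ± 0.07 (limma adjusted p = 0.00977, and 0.051 without the filter or 0.0716 without the variance trend). Psmb10, which replaces Psmb7, changed by -0.38 ± 0.08 (adjusted p = 0.0101, and 0.0561 without the trend), and Psmb9, which replaces Psmb6, changed by -0.19 ± 0.07 and did not pass (adjusted p = 0.080). The ratio of Psmb8 to Psmb5 was 2.61, 2.42 and 2.02 in controls and 1.71, 1.59 and 1.60 in irradiated libraries. The transcript of the immunoproteasome chain was thus the more abundant one in all 6 libraries, by a smaller factor after irradiation. The ratio of Psmb10 to Psmb7 was 0.613, 0.691 and 0.617 in controls and 0.479, 0.518 and 0.550 in irradiated libraries. The ratio of Psmb9 to Psmb6 was 1.03, 1.14 and 1.03 in controls and 0.975, 0.855 and 0.977 in irradiated libraries, on either side of equal levels. The log2 ratios differed by -0.52, -0.31 and -0.19, and each of the 3 had a two-sided exact permutation p of 0.1, also after Benjamini-Hochberg adjustment, the smallest that 3 libraries against 3 allow.

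**Figure D3:**
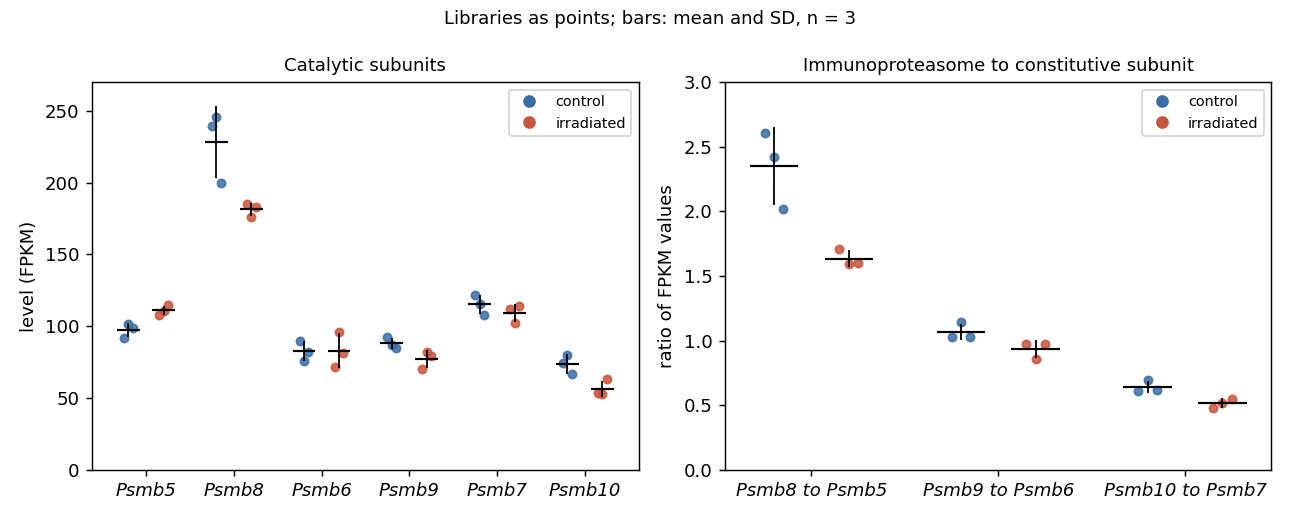
The left y axis is the level in FPKM of each constitutive catalytic subunit beside the immunoproteasome subunit that replaces it, and the right y axis is the ratio of the pair within each library. Points are control (blue) and irradiated (red) libraries, bars are mean and SD, and all 3 ratios are lower in every irradiated library than in any control library.

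The remaining core genes, whose products build the rings, showed small differences that did not pass. Psma1 stood at 88.5, 89.7 and 93.5 FPKM in controls and at 101, 102 and 100 FPKM in irradiated libraries. Its groups did not overlap, and its log2 change of 0.16 ± 0.05 had an adjusted p of 0.0548. With median-of-ratios scaling the adjusted p of Psma1 was 0.0261, and 6 of 14 alternative fits called it. Psma3 stood at 42.3 ± 1.42 FPKM (SD, n = 3) in controls and 47.8 ± 1.43 FPKM in irradiated libraries, again without overlap (adjusted p = 0.0836, and 0.0494 with median-of-ratios scaling). Psma7 lay the other way, at 113, 117 and 111 against 108, 101 and 106 FPKM (log2 change -0.11 ± 0.05, adjusted p = 0.173). Leaving out Psma8, the 95% intervals of the 14 core genes ran from -0.23 to 0.31 at their outermost, so that a change beyond 0.5 in either direction lies outside each of them. The summed level of the core was 1499 ± 43.9 FPKM in controls and 1532 ± 19.3 FPKM in irradiated libraries.

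Transcripts of the core did not stand at equal levels per length, although the particle holds an equal number of each ring position. Some positions can be taken by alternative chains, such as Psmb8, Psmb9, Psmb10 or Psma8. The highest level was that of Psmb4, which encodes a non-catalytic beta chain, at 185 ± 14.6 FPKM in controls and 189 ± 2.52 FPKM in irradiated libraries, followed by Psmb3 at 152 ± 10.02 and 160 ± 9.75 FPKM. The lowest among the widely transcribed chains was Psma3, 4.15 times below Psmb4 in the mean of all 6 libraries. Many neighbours in this order, such as Psma2 at 139 ± 6.07 FPKM and Psmb1 at 135 ± 7.02 FPKM in control, did not differ beyond their spread. Psma8, the testis form of Psma7, stood at 1.34, 1.13 and 0.937 FPKM in controls and at 0.634, 1.07 and 1.07 FPKM in irradiated libraries. Its coding sequence shares 74.5% of aligned bases with Psma7, with no identical run over 17 bases. Psmb11, the thymus form of Psmb5, was not among the genes with values, so it could not be tested.

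**Figure D4:**
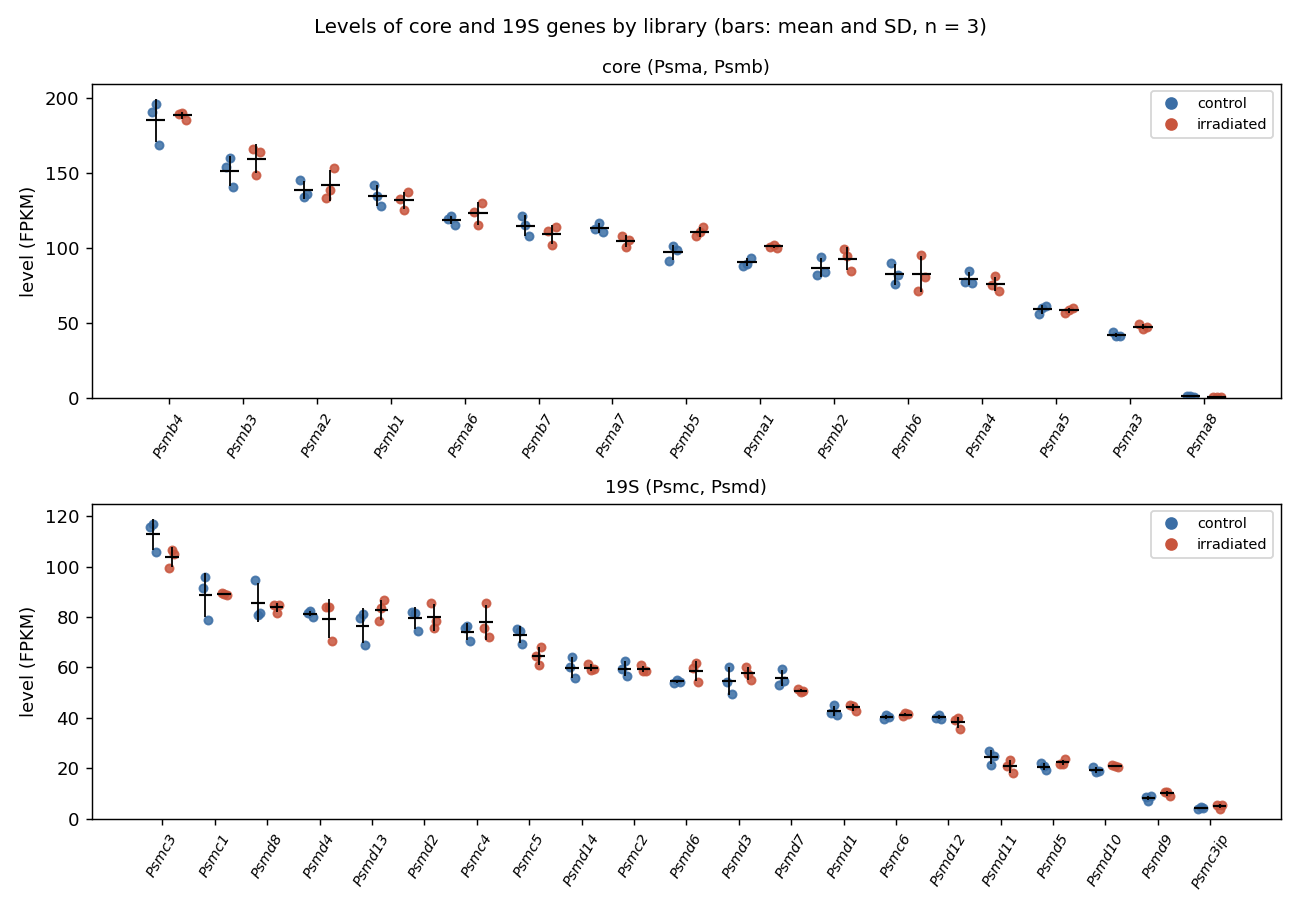
The y axes are the levels in FPKM of the core genes (above) and the 19S group (below), ordered by their mean over 6 libraries, with control libraries in blue, irradiated in red, and mean and SD as bars. The order of the genes spans a far wider range than the difference between the groups, and Psmb4 and Psmc3 have the highest means.

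In the 19S group 0 of 21 genes were called in either direction by limma, beside 16.6% of all genes tested. At an unadjusted p under 0.05 there were 2 of 21, beside 3156 of all 10666 genes tested. The 2 were the ATPase gene Psmc5 and Psmd9, which encodes a chaperone of base assembly. Psmc5 stood at 75.2, 74.4 and 69.1 FPKM in controls and at 64.5, 61.1 and 68.0 FPKM in irradiated libraries, without overlap (log2 change -0.17 ± 0.06, adjusted p = 0.0834). Without control replicate 3 its adjusted p was 0.0495. Psmd9 stood at 8.58, 7.21 and 8.96 FPKM in controls and at 10.5, 10.8 and 8.98 FPKM in irradiated libraries (log2 change 0.26 ± 0.12, adjusted p = 0.159). One irradiated library of Psmd9 thus lay next to the highest control value. The other ATPase genes did not pass, and Psmc6 stood at 40.2 ± 0.849 and 41.3 ± 0.535 FPKM. Psmc3 had the highest level of the group, at 113 ± 6.19 and 104 ± 3.92 FPKM.

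Among the other base and lid genes, Psmd2 and Psmd1, the scaffold chains of the base, had log2 changes of 0.0060 and 0.05, and Psmd4, a ubiquitin receptor, of -0.04. Psmd14, the deubiquitinase that clips chains from substrates, stood at 59.99, 63.9 and 55.7 FPKM in controls and at 61.4, 58.8 and 59.4 FPKM in irradiated libraries. Its mean was 59.9 FPKM in both groups (interval -0.14 to 0.14). Its partner in the lid, Psmd7, stood at 53.2, 59.3 and 54.7 FPKM in controls and at 51.3, 50.3 and 50.6 FPKM in irradiated libraries, lower without overlap but not called (adjusted p = 0.184). Psmd11, a lid subunit that can raise the assembly of 26S proteasomes, stood at 24.4 ± 2.75 and 20.7 ± 2.66 FPKM (interval -0.47 to 0.01). For the 20 subunits and base chaperones the intervals ran from -0.47 to 0.52 at their outermost, and 19 of 20 lay within 0.5 of no change. Psmc3ip, which is no subunit, was the lowest of the group by level at 4.14 ± 0.356 and 4.88 ± 0.778 FPKM. The summed level of the 21 genes was 1156 ± 51.3 FPKM in controls and 1149 ± 18.7 FPKM in irradiated libraries.

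**Figure D5:**
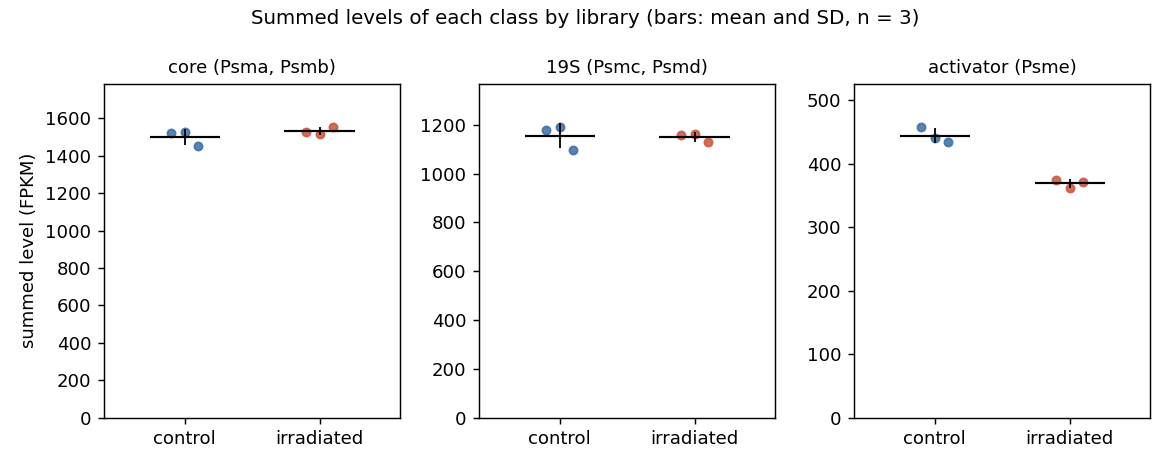
The y axis of each panel is the summed level in FPKM, from 0, of the core, 19S and activator groups in each control (blue) and irradiated (red) library, with mean and SD as bars. The core and 19S sums overlap between groups, and the activator sums are 434.2 to 457.9 FPKM in controls and 361.3 to 375.3 FPKM in irradiated libraries.

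The 3 base chaperones Psmd5, Psmd9 and Psmd10, which help the ATPase ring to form and then leave it, each had a higher mean after irradiation, and none passed. Their summed level was 46.4 to 51.1 FPKM in controls and 52.9 to 53.7 FPKM in irradiated libraries. The chaperones of the core, Psmg1 to Psmg4, and the core-binding regulator Psmf1 (PI31) did not pass either. Psmg4 had the largest difference of these, at 28.7 ± 3.11 and 24.7 ± 3.51 FPKM (log2 change -0.21 ± 0.11, adjusted p = 0.214). Psmg1 stood at 21.3 ± 0.158 and 20.4 ± 2.70 FPKM, and Psmg2 at 18.9 ± 2.65 and 19.9 ± 2.25 FPKM. Psmg3 stood at 22.1, 21.4 and 14.2 FPKM in controls and at 22.0, 20.6 and 15.0 FPKM in irradiated libraries, so that 1 library of each group was low. That spread leaves the interval of Psmg3 at -0.37 to 0.38. Psmf1 had a mean of 8.05 FPKM in both groups.

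Other genes of the pathway were read from 5 lists with 50 genes tested, of which 2 were higher and 7 lower, or 18%, a share near the 16.6% of all genes tested (6.29% higher and 10.3% lower). Sem1, a small lid subunit whose symbol lies outside the Psm series, rose by 0.36 ± 0.05 (adjusted p = 0.000327), and was the 1 of 17 tested partner genes called higher. Akirin2, which brings proteasomes into the nucleus, changed by -0.31 ± 0.09 (adjusted p = 0.0306), and Ubqln1, a shuttle for ubiquitinated proteins, by -0.25 ± 0.07 (adjusted p = 0.0244). The Akirin2 call was lost without control replicate 1 or 3 or irradiated replicate 1 or 2 (adjusted p of 0.051 to 0.0936). It was also lost without the filter on low values (0.0731) and without the variance trend (0.0811). The Ubqln1 call was lost without control replicate 1 or 2 or irradiated replicate 1 (adjusted p of 0.0661 to 0.0902), and without the variance trend (0.0658). Adrm1, the ubiquitin receptor beside Psmd4, and Uchl5, the deubiquitinase it binds, had log2 changes of 0.17 and 0.19 and did not pass. Pomp, which is needed to assemble the core, changed by -0.18 ± 0.08 (adjusted p = 0.167).

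Nfe2l1 encodes the transcription factor that raises proteasome genes when proteasome activity is short. It changed by -0.25 ± 0.08 (adjusted p = 0.040), a call that did not hold when control replicate 1 or 2 or irradiated replicate 1 or 2 was left out (adjusted p of 0.0961 to 0.149). The call of Nfe2l1 was also lost by scaling with the median of ratios (0.0745) or quantiles (0.0708), with the replicate block (0.0771) and without the variance trend (0.0703). Mafg, a partner of that factor, rose by 0.42 ± 0.10 (adjusted p = 0.0138, and 0.0577 without control replicate 1 or 0.054 without irradiated replicate 2), and 1 of 9 genes on that list was called in each direction. Of 8 genes for p97 and its cofactors and of 6 for ubiquitin and its activating enzymes, limma called 0 in either direction. At an unadjusted p under 0.05 there were 0 of the former and 3 of the latter, beside 3156 of all 10666 genes tested. Of 10 class I processing genes 4 were lower and 0 higher, among them B2m, the light chain of MHC class I (-0.74 ± 0.04), Tap1 (-0.58 ± 0.06) and Tapbp (-0.55 ± 0.05). All 18 tested genes of a type I interferon list were lower, with a median of -1.80 and a summed level of 676 to 689 FPKM in controls and 207 to 219 FPKM in irradiated libraries. These genes fell in the same libraries as Psme1 and Psme2, and their part in the result was not tested.

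The promoters of the members were searched for motifs because members differed in their change. RefSeq GRCm38.p6 windows from 250 bases before to 50 bases after the gene start were held for 39 of 47 members. The interferon-stimulated response element, searched as GAAANNGAAA on both strands, was in 5 of 39 members (12.8%) and in 3.99% of 27025 genes with a window. The 30 bases around each match are shown, 5′ to 3′ on the strand of the gene, with the match in capitals, because 1 of the 5 genes was called lower and the others did not pass.
Psme1: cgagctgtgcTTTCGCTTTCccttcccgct
Psmb3: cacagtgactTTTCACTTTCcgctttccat
Psmd4: ataaccaaccTTTCCATTTCtgtggcgcct
Psmd9: gggacagaatGAAAAAGAAAggaatgaaca
Psmg4: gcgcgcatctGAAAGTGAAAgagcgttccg
Distances are from the RefSeq start of each window, which for Psme1, Psmb3 and Psmd9 lies inside the GENCODE gene, downstream of its start. The match begins 10 bases after the start in Psme1 (chromosome 14, 55578493 to 55578522 for the shown bases), and 16 bases after it in Psmg4, and lies 80 to 163 bases before it in the others. Psme1 changed by -0.30, while Psmb3, Psmd4, Psmd9 and Psmg4 had log2 changes of 0.08, -0.04, 0.26 and -0.21 and did not pass. Both windows of Psme2 lacked these letters.

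The antioxidant response element, the kind of site that Nfe2l1 binds with a Maf partner, was searched as TGACNNNGC on both strands. It was in 6 of 39 members (15.4%) beside 14.0% of all genes with a window. The match of Psmb5, which begins 47 bases before its RefSeq start, is shown since Psmb5 was the member called higher. Beside it is that of the catalytic neighbour Psmb6, 9 bases before its RefSeq start. The RefSeq start of Psmb5 lies inside the GENCODE gene, downstream of its start.
Psmb5: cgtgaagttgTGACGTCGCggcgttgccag
Psmb6: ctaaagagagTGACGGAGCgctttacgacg
The log2 changes of these genes were 0.19 and -0.0050. The other members with the letters were Psmc6, Psmd12, Psmd9 and Psme4, and none of these passed. The gamma-activated site, searched as TTCNNNGAA, was in 2 of 39 members (Psmd2 and Psmg1) beside 9.55% of all genes with a window. A match is a description of these letters and does not show that a factor binds.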

How the data were processed

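The data were 6 RNA-seq libraries. The values deposited by the authors, 1 for each gene in a library, were read as FPKM from the values, since the headers name only gene and sample. The submitters' processing notes name fastp, HISAT2 and StringTie and the builds GRCm38 and mm10, without versions or settings, and the annotation is not given. Per the labels' protocols a stranded mRNA kit was used. Samples were grouped by the treatment label. Whether replicates are separate animals is not stated, so that p-values reflect only the spread among these libraries, possibly technical.

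Every gene whose mean reached 1 FPKM was tested on log2(FPKM + 1), which understates the change of low genes, with limma 3.58.1 in R 4.3.3 (lmFit, eBayes with trend), two-sided, with Benjamini-Hochberg adjustment over all 10666 genes. The test was also run on simulated data with independent noise for each gene. Those data hold no shared shift of libraries or cell types, so they cannot show how the test behaves under such shifts. Ratios within libraries had an exact permutation test. Members and lists were chosen with earlier results of these data known. Named genes were the called members, the catalytic, activator, inhibitor and chaperone genes, the highest and lowest of core and 19S, and up to 4 called genes of each pathway list. Other genes named are outside that rule, chosen after their values were seen. Relative depth was the scale at which values under 0.1 FPKM of a pair of libraries came closest to fractions of integers up to 6 (tolerance 0.001). Coordinates and coding sequences are from GENCODE M21 on GRCm38, which held 46 of 47 members. Coding sequences were aligned with Biopython 1.88.

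The fit was repeated with array weights, without the trend, with a replicate block, without each library in turn, with quantile normalization or median-of-ratios scaling, with a pseudocount of 0.1, without the filter or with one of 5 FPKM, and with calls at an unadjusted p under 0.05 and a log2 change of 0.5 or more. Medians without Psmc3ip, without Psme3ip1 or without Psme2b, and the ratio of Psme1 to Psme3, were added after seeing the data.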

Additional observations from a re-analysis of the deposited data

How the results depend on the processing

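Psme1 and Psme2 were lower and called in all 14 alternative fits. The 3 members called lower became 0 under an unadjusted p under 0.05 with a log2 change of at least 0.5, which none of them reaches. Members called higher numbered 1 as reported, 2 with a minimum mean of 5 FPKM, quantile normalization or array weights, 3 with median-of-ratios scaling, and 0 without trend, with the replicate block, or under the unadjusted threshold, and 0 to 1 when a library was left out. Without the filter the 1 member called higher was Psma1 (limma adjusted p = 0.0464), not Psmb5. The replicate block gave 0 higher and 3 lower members. Same-numbered libraries did not deviate together (correlations of 0.011, -0.042 and -0.023). Such small correlations over all genes show no dominant shared deviation, but they cannot show that the numbers carry no pairing. Of 47 members, 40 were called in no fit. The core median was 0.062 with median-of-ratios scaling, which moved the median of all genes from -0.024 to 0.006. The activator median was -0.168 with that scaling, -0.297 without Psme3ip1, -0.104 without Psme2b, and -0.243 to -0.168 when a library was left out. The 19S median ran there from -0.039 (without control replicate 3) to 0.051. Over all genes 1771 were called, 984 under the unadjusted threshold, and 1123 to 1652 when a library was left out. The ratios of Psmb8, Psmb9 and Psmb10 to their counterparts kept their direction in all alternatives. The irradiated libraries were shallower, and low genes such as Psma8 have wide intervals.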
